A study of Mus musculus with 4 samples.

Results

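Glycolysis and hypoxia genes were followed across 4 cultures of mouse cells, as a list of 40 named genes for glucose uptake, the steps from glucose to lactate, the control of pyruvate entry into mitochondria, lactate transport and the hypoxia-inducible factor (HIF) system. Each gene was represented by its probe set with the highest mean level among those that the array's annotation pairs with a single gene symbol. This gave values for 37 of the 40 genes, out of 19938 genes in all. Gpi1, Pfkfb1 and Eno1 had no such probe set and were not analysed here.

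The study asked how basic fibroblast growth factor (bFGF, FGF2) acts on mesenchymal stem cells (MSC) of the marrow, and deposited 1 Affymetrix gene array for each of 4 cultures of C57BL/6 origin. MSC were plastic-adherent cells flushed from femurs and tibiae, grown in Coon's modified F12 medium with 10% fetal calf serum, either without bFGF or with bFGF at 1 ng/ml. The controls were osteoblasts, which were pooled from the later enzyme digestions of newborn skull bones and grown in DMEM with 10% fetal calf serum, and embryonic stem (ES) cells, whose culture is not described in the sources used here. The age of the marrow donors, the passage and the glucose content of the media are likewise not given in those sources, so cell type and medium cannot be told apart between MSC and controls. With 1 array per culture there is no replicate, so all differences below describe these arrays without a test, and neither an SD nor a p-value can be given.

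Levels are RMA values on a log2 scale, on which a difference of 1 is 2-fold, and differences are given as log2 values unless called a fold. Genes counted as higher or lower had to differ at least 2-fold and to exceed, in the array with the higher level, a floor set at the median over its single-symbol probe sets. This floor was 6.46 in the ES cell array, 6.46 in osteoblasts, 6.29 in MSC grown without bFGF and 6.32 in those grown with it. Levels below the floor lie close to background, so a fold that starts there is uncertain. Of the 37 genes, 25 were above the floor in all 4 arrays, and Slc2a4, the insulin-responsive glucose transporter, and Epas1, which encodes HIF-2 alpha, were above it in none.

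The labels were checked against markers. ES cells had 9 of 12 pluripotency markers above the floor, against 0 in osteoblasts, 0 in MSC without bFGF and 1 in MSC with bFGF. Osteoblasts had 1 of 6 measured osteoblast markers above the floor, against 2 in ES cells. MSC had 2 without bFGF and 0 with it. Of the 13 measured stromal markers, 13 were above the floor in osteoblasts and 11 in ES cells. In MSC 8 were above it without bFGF and 10 with it. The osteoblast list thus did not mark osteoblasts, and the stromal list did not mark MSC against ES cells. The 19 measured macrophage markers had a median level of 11.23 in osteoblasts and 9.77 in MSC with bFGF. Their median was 7.42 in ES cells and 6.78 in MSC without bFGF. The 15 measured mitosis genes had medians of 8.999 in ES cells, 7.80 in osteoblasts, 6.65 in MSC with bFGF and 5.81 in MSC without bFGF. In cultures of mixed cells, fewer cells of a type and less RNA per cell cannot be told apart.

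Glycolysis splits glucose into pyruvate, which is either oxidised in mitochondria or reduced to lactate and exported. Most steps have several isoenzymes encoded by different genes, and the choice among them differs between tissues. HIF-1 is a transcription factor whose alpha subunit is degraded after prolyl hydroxylation when oxygen is plentiful, and genes of nearly every glycolytic step are known HIF-1 targets. Growing and activated cells, activated macrophages among them, are known for high glycolysis even in oxygen.

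HIF binds DNA at a hypoxia response element, whose core is ACGTG or GCGTG. The RefSeq promoter table (GRCm38.p6, 250 bases before to 50 after a start site) held windows for 33 of the 37 genes. The 6 windows shown here belong to the 5 members whose level with bFGF was at least 2-fold that without, and to Ldha, a well-known HIF target that differed by less. They lie at chr2:27027949-27028248 on the minus strand for Slc2a6, chr13:55021336-55021635 on the minus strand for Hk3, chr13:6648722-6649021 on the minus strand for Pfkp, chr2:71872974-71873273 on the plus strand for Pdk1, chr11:120948817-120949116 on the plus strand for Slc16a3 and chr7:46845554-46845853 on the plus strand for Ldha. Each is written 5′ to 3′ along the gene, with capitals marking ACGTG and GCGTG on either strand (on the opposite strand they read CACGT and CACGC), and for Pdk1 and Ldha it is the first of 2 windows in the table.
Slc2a6: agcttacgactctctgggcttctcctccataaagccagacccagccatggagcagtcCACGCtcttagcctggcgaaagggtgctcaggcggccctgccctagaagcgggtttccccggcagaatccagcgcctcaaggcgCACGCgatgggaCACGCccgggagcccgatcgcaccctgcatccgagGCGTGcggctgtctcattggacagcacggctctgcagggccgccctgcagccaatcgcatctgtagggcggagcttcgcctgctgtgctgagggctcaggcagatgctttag
Hk3: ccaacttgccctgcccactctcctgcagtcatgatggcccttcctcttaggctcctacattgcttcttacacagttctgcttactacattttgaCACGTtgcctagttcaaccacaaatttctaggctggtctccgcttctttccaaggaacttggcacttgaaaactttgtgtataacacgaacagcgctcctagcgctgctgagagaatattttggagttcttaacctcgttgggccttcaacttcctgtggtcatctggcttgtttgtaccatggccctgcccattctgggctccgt
Pfkp: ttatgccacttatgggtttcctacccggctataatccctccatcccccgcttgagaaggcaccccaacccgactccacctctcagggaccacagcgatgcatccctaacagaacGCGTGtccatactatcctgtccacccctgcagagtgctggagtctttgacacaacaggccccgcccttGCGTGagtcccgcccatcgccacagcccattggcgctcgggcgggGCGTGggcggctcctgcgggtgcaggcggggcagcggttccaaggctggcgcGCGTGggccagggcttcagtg
Pdk1: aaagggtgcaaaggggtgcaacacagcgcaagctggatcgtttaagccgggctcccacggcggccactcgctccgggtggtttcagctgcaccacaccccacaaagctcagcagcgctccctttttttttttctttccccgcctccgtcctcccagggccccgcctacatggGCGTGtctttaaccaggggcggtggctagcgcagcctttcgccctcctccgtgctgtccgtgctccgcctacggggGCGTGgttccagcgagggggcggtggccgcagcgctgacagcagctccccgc
Slc16a3: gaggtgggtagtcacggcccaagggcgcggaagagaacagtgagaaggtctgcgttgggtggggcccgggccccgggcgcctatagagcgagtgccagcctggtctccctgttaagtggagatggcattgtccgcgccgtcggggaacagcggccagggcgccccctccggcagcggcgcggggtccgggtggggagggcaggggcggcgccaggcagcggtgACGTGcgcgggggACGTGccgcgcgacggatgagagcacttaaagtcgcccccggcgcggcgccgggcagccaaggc
Ldha: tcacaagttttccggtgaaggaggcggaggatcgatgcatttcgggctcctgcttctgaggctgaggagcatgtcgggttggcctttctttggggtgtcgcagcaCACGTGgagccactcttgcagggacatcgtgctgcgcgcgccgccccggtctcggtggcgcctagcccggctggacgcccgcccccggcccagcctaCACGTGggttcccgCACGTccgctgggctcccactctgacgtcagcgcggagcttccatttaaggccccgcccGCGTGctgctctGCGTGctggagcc

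Among the 5 genes, Slc2a6 and Pfkp each had 4 matches to GCGTG, Pdk1 had 2 to GCGTG, Slc16a3 had 2 to ACGTG close together, and Hk3 had 1 to ACGTG. The Ldha window held 5 matches to ACGTG and 2 to GCGTG. A palindromic CACGTG counts as an ACGTG match on both strands, and the Ldha window has 2 of them. The other windows shown had no CACGTG. Of all 47 windows of the 33 genes, 38 (80.9%) held at least 1 match, against 43.8% of the 32841 windows of the same length in the table. Both cores contain a CG dinucleotide, and the windows of these genes had a median of 17 CG dinucleotides against 7 over all windows, so CG content moves with the share of matches. Its part in that share was not tested, some windows of a gene overlap, and a match is not evidence of binding. The list was also drawn up to include known HIF targets, so the share describes the list and is not a test of it.

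With bFGF, 5 of the 37 genes were 2-fold or more higher and 0 were lower, with 30 of the 37 above the floor in the higher MSC array. They were the transporter gene Slc2a6, the hexokinase Hk3, the phosphofructokinase Pfkp, the pyruvate dehydrogenase kinase Pdk1 and the lactate exporter Slc16a3. Over all genes above the floor, 4.09% of 10483 were higher to this degree and 0.467% were lower. The median difference was 0.15 over the 37 genes and -0.0037 over all genes above the floor, and 28 of the 37 were above 0. Since a gene can be above the floor only through the array in which it is high, these counts describe the list and are not a test of it. With the floor at the 75th percentile of each array 3 were higher, and Hk3 and Pdk1 lost their call.

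**Figure D1:**
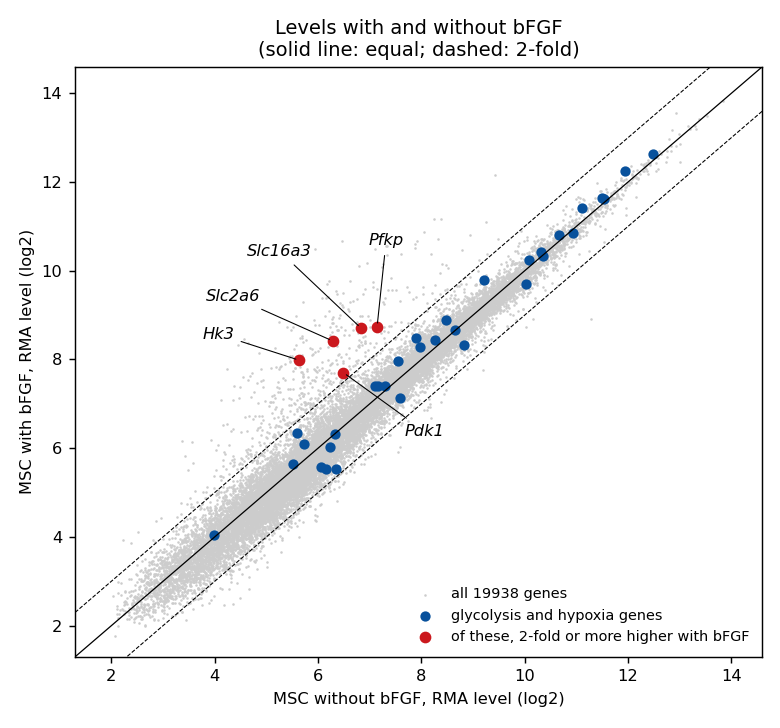
RMA levels (log2) of all 19938 genes (grey) and of the 37 glycolysis and hypoxia genes (coloured) in MSC without bFGF (x axis) and with bFGF (y axis), with lines for equal levels and 2-fold differences. The 5 genes in red lie 1.21 to 2.34 above the line of equal levels, and the other 32 lie within 2-fold of it.

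Hk3, a hexokinase isoform found mainly in blood cells, had the largest difference of the list. Its level was 5.64 in MSC without bFGF and 7.98 with it, 2.34 higher (5.08-fold), the 109th highest difference of the 10483 genes. In osteoblasts Hk3 was at 8.28 and in ES cells at 6.09. It was thus high in osteoblasts and in MSC with bFGF and below the floor in the other arrays, so the size of its difference is uncertain.

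Slc2a6 encodes GLUT6, a transporter of the glucose carrier family found in leukocytes and on internal membranes. It stood at 6.49 in ES cells, 9.18 in osteoblasts, 6.28 in MSC without bFGF and 8.42 in MSC with bFGF. The difference between the MSC cultures was 2.13 (4.39-fold), from a level just under the floor. As for Hk3, the osteoblast array was highest and MSC with bFGF second.

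Slc16a3 encodes MCT4, the carrier through which highly glycolytic cells export lactate. It stood at 10.05 in ES cells, 9.03 in osteoblasts, 6.83 in MSC without bFGF and 8.71 in MSC with bFGF, above the floor everywhere. MSC with bFGF were 1.88 higher (3.67-fold) than MSC without, and the low value was that of MSC without bFGF. Pfkp, the platelet-type subunit of phosphofructokinase, stood at 8.58 in ES cells, 8.59 in osteoblasts, 7.14 in MSC without bFGF and 8.74 in MSC with bFGF. Its difference was 1.60 (3.03-fold), and MSC without bFGF were the single low array among levels that otherwise spanned only 8.58 to 8.74. Pdk1, a kinase that shuts pyruvate dehydrogenase and a HIF-1 target, stood at 8.74 in ES cells, 8.41 in osteoblasts, 6.49 in MSC without bFGF and 7.70 in MSC with bFGF. It was 1.21 higher (2.32-fold) with bFGF but remained below both controls.

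Cell type markers and mitosis genes also differed between the MSC cultures. Of the 19 macrophage markers, 17 were at least 2-fold higher with the factor and 0 lower, with a median difference of 2.78, and the summed log2 level of the list was 174.6 with bFGF against 126.7 without, 203.1 in osteoblasts and 141.6 in ES cells. Among the defining markers, Ptprc stood at 6.08 without bFGF and 9.40 with it, Csf1r at 7.31 and 10.56, and Spi1 at 5.52 and 7.75, whereas Cd163 and Mrc1 did not reach the floor with or without the factor. Of the 15 mitosis genes, 5 were 2-fold or more higher and 0 lower, with a median difference of 0.95. Stromal markers went both ways. Of the 10 above the floor, 3 were lower with bFGF (Col3a1, Dcn and Pdgfrb) and 2 higher (Eng and Nt5e). Over all genes above the floor, 0.467% were lower and 4.09% higher. The part of these cells in the differences of Hk3, Slc2a6, Slc16a3, Pfkp and Pdk1 was not tested. In ES cells Slc16a3 stood at 10.05, Pfkp at 8.58 and Pdk1 at 8.74, with Csf1r at 7.30, above the floor, and Ptprc at 6.02 and Spi1 at 5.79, under it. The ES cell array had macrophage signal as a whole, with 15 of the 19 markers above the floor and Adgre1 at 9.05. The number above the floor was 11 in MSC without bFGF, 17 in MSC with bFGF and 18 in osteoblasts. Hk3 in ES cells was at 6.09, under the floor, and Slc2a6 at 6.49, just above it.

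**Figure D2:**
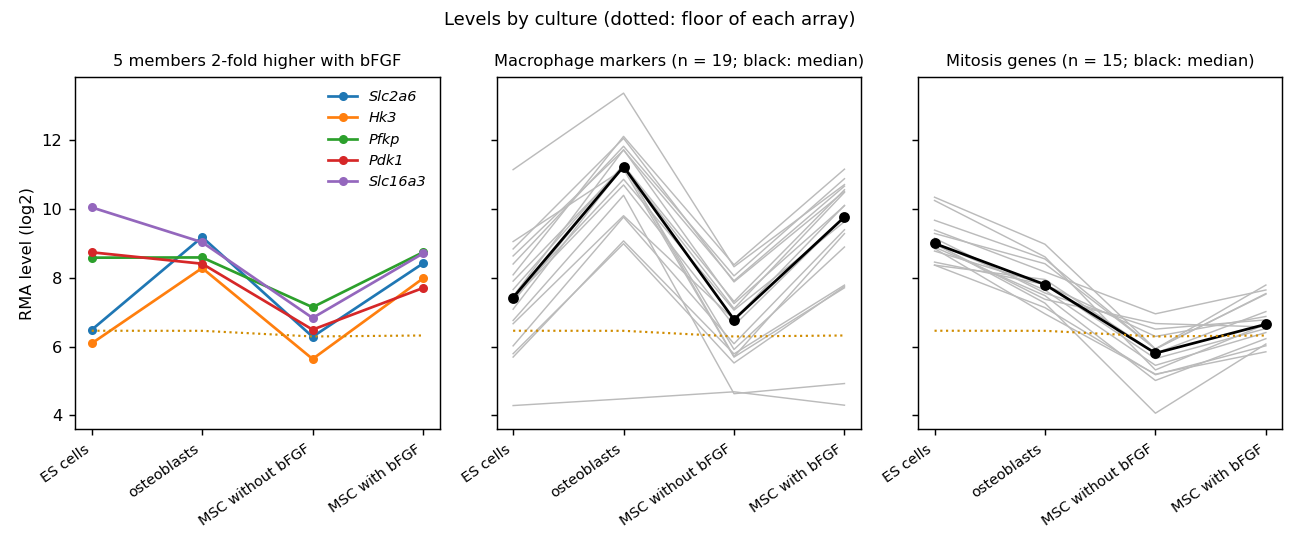
RMA levels (log2, y axis) in the 4 cultures (x axis) of the 5 members at least 2-fold higher with bFGF (left), the 19 measured macrophage markers (middle) and the 15 measured mitosis genes (right), with 1 line per gene, the list median in black and the floor of each array dotted. Hk3 and Slc2a6 are highest in osteoblasts, Slc16a3 and Pdk1 in ES cells, and Pfkp in MSC with bFGF (8.74). The macrophage median is highest in osteoblasts (11.23) and the mitosis median in ES cells (8.999). Whether the markers and the 5 genes are linked was not tested.

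The remaining genes differed by less than 2-fold between the MSC cultures. The brain-type aldolase Aldoc (0.76), the HIF prolyl hydroxylase Egln1 (0.58) and the inducible hexokinase Hk2 (0.58) had the next largest positive differences. Aldoc was under the floor without bFGF and just above it with bFGF, so the size of its difference is uncertain. On the other side, the muscle mutase Pgam2 differed by -0.83, the neuronal enolase Eno2 by -0.51 and the bifunctional regulator Pfkfb2 by -0.46. Pgam2 stood at 6.36 without bFGF and 5.53 with it, one value just above the floor and one below it. As a gauge of low-level noise, 1190 genes for olfactory and vomeronasal receptors, which bone marrow and bone cells hardly use, had a central 95% of differences from -0.97 to 0.67. The Pgam2 value lies inside that range. Hif1a, the oxygen-regulated HIF-1 subunit, differed by 0.15, and the well-known HIF targets Ndrg1 and Slc2a1 by -0.03 and -0.09.

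The abundant enzymes from aldolase to lactate dehydrogenase kept 1 order across the arrays, and the steps were small. Aldoa, the main aldolase, stood at 12.41 in ES cells, 12.35 in osteoblasts, 12.24 in MSC with bFGF and 11.94 in MSC without bFGF. Pgk1, phosphoglycerate kinase, stood at 12.02, 11.91, 11.42 and 11.11 in the same order of arrays. Ldha, the lactate dehydrogenase subunit that favours lactate formation, stood at 12.33, 12.001, 11.64 and 11.50. In each case ES cells were highest and MSC without bFGF lowest, as also for Tpi1 (11.44 to 10.67), Pgam1 (10.83 to 10.31) and Pkm (11.91 to 11.53). The whole range over 4 arrays was 0.39 to 0.91 for these 6 genes, under 2-fold, and between the MSC cultures they differed by 0.10 to 0.31. Pkm encodes both the M1 and M2 forms of pyruvate kinase, which a value per gene does not separate.

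The same order, ES cells, osteoblasts, MSC with bFGF and MSC without bFGF from high to low, held for Pfkl, Pdk1 and Slc16a3 too. It was chosen after the values were seen. Of the 25 genes above the floor in all arrays it held for 9, against 5.47% of the 8233 such genes in the series. The lowest array was MSC without bFGF for 14 of the 25 genes (18.2% of those 8233), ES cells for 6 (35.9%), osteoblasts for 4 (34.2%) and MSC with bFGF for 1 (11.7%). The highest array was ES cells for 13 (24.6%), MSC with bFGF for 5 (21.2%), osteoblasts for 4 (25.6%) and MSC without bFGF for 3 (28.6%). The mitosis medians ran in the same order of arrays, from 8.999 to 5.81, and their part in the order of these genes was not tested.

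**Figure D3:**
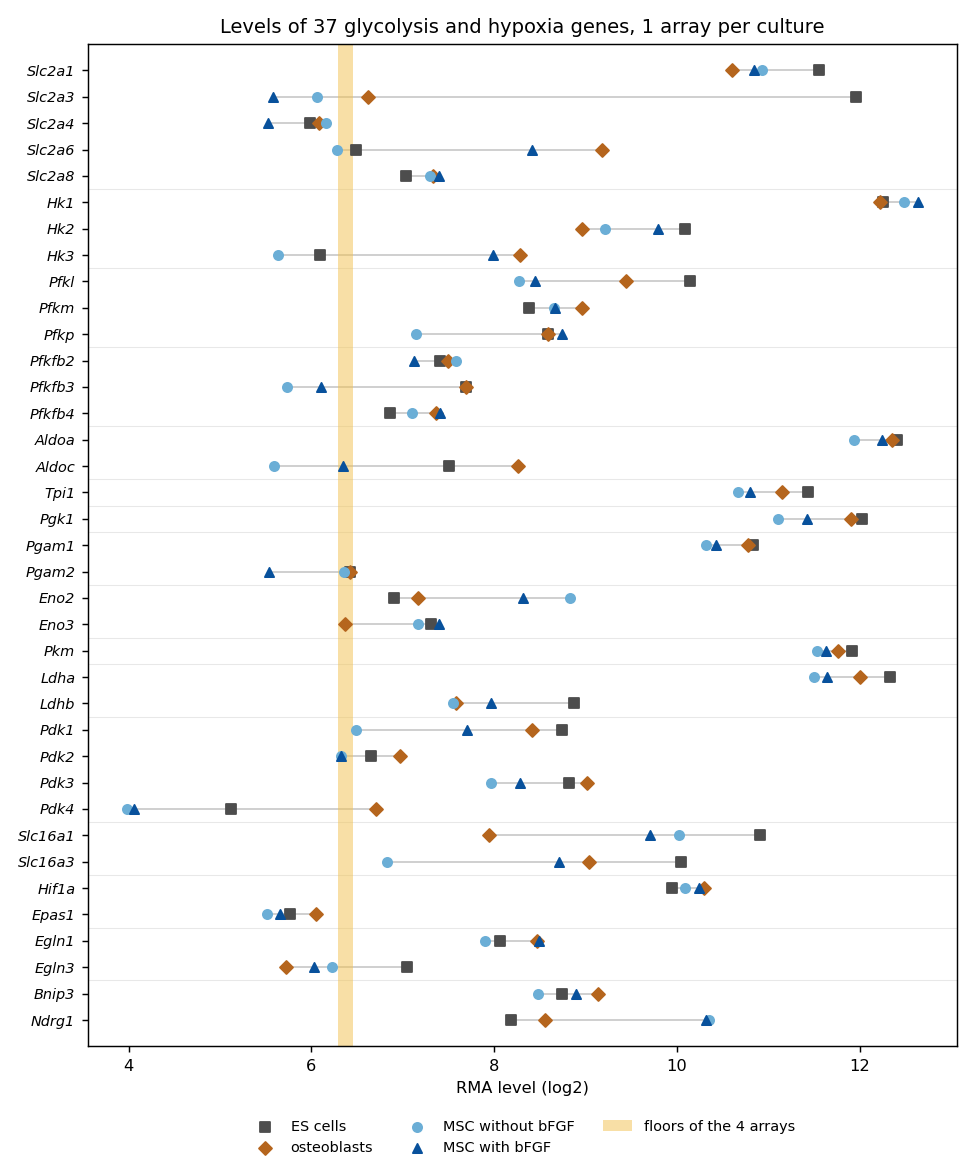
RMA level (log2, x axis) of the 37 genes (rows, grouped by step of the pathway) in the 4 arrays, with a grey line over each gene's range and a band over the floors of 6.29 to 6.46. Aldoa, Tpi1, Pgk1, Pgam1, Pkm and Ldha sit above 10 with ranges of at most 0.91, while Slc2a3 spans 6.38 and Slc16a3 3.22.

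Against the controls, the median of the list in MSC lay below that of all genes. MSC without bFGF had 10 genes 2-fold or more lower than osteoblasts and 3 higher, with 33 of the 37 above the floor, where 13.3% of all genes above the floor were lower and 8.17% higher. The lower genes were Slc2a6, Hk3, Pfkl, Pfkp, Pfkfb3, Aldoc, Pdk1, Pdk3, Pdk4 and Slc16a3, and the higher ones Eno2, Slc16a1 and Ndrg1. All 5 genes that were higher with bFGF are thus among those lower without it than in osteoblasts, and both comparisons share the array of MSC without bFGF. The median was -0.46 for the list and 0.09 for all genes above the floor. In the same comparison 18 of 18 macrophage markers above the floor and 14 of 15 mitosis genes were lower, as were 9 of 13 stromal markers. MSC with bFGF had 4 genes lower and 4 higher than osteoblasts, with medians of -0.30 and 0.09, beside 9.71% and 7.5% of all genes. With differences centred on the median of all genes, the split was 5 lower and 3 higher, and with the floor at the 75th percentile 1 was lower, as Slc2a3, Pfkfb3 and Pdk4 lost their call. In that comparison 11 of 18 macrophage markers, 9 of 15 mitosis genes and 10 of 13 stromal markers were lower. Against ES cells, 8 genes were lower and 2 higher in MSC without bFGF (11.8% and 10.4% of all genes), and 8 lower and 4 higher in MSC with bFGF (10.6% and 11.3%). The list medians were -0.47 and -0.33, where those of all genes above the floor were 0.10 and 0.12. With the stricter floor 5 were lower in MSC with bFGF than in ES cells. Against ES cells, 15 of 15 mitosis genes and 9 of 9 pluripotency markers above the floor were lower in either MSC culture. Of the macrophage markers, 5 of 15 were lower without bFGF, and 15 of 18 were higher with it. The part of these cells in the differences from the controls was not tested. These comparisons share arrays and are not independent of each other. Osteoblasts differed from ES cells with a list median of 0.01, 6 genes lower and 3 higher (8.83% and 12.3% of all genes).

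In both MSC cultures, 2 genes were 2-fold or more higher than in both controls, Ndrg1 and Eno2, where 2.48% of 11672 genes were. Ndrg1, a stress protein induced by hypoxia and on differentiation, stood at 8.19 in ES cells, 8.56 in osteoblasts, 10.35 in MSC without bFGF and 10.32 in MSC with bFGF. Both MSC levels lay at least 1.76 above both controls and were 0.03 apart. Eno2 stood at 6.90 in ES cells, 7.16 in osteoblasts, 8.83 in MSC without bFGF and 8.32 in MSC with bFGF, and its differences from the controls ran from 1.15 to 1.93. Both genes are known to respond to low oxygen, but the list was drawn up to include such genes. The HIF-1 target Pdk1 was 2-fold or more lower in both MSC cultures than in ES cells. Any part of oxygen in these differences was not tested. Against osteoblasts alone Slc16a1 was a further such gene, making 3 where 5.3% of all genes were, and against ES cells alone the count stayed at 2 where 6.85% were. Other HIF-system genes spanned less, as Bnip3, a mitophagy receptor and HIF target, spanned only 8.48 to 9.14, and Hif1a 9.94 to 10.29.

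The 2 genes that were 2-fold or more lower in both MSC cultures than in both controls were Pfkfb3 and Aldoc, where 2.47% of all genes were. Against osteoblasts alone Pdk4 was added (7.88% of all genes), and against ES cells alone Slc2a3, Pfkl, Pdk1 and Slc16a3 (8.44%). Aldoc stood at 7.51 in ES cells, 8.26 in osteoblasts, 5.59 in MSC without bFGF and 6.34 in MSC with bFGF. Pfkfb3, the kinase that makes fructose 2,6-bisphosphate and so stimulates phosphofructokinase, stood at 7.69 in ES cells, 7.69 in osteoblasts, 5.73 in MSC without bFGF and 6.10 in MSC with bFGF. Both MSC levels of Pfkfb3 were under the floor, so the size of its differences, -1.58 to -1.96, is uncertain. Its relatives differed less, as Pfkfb4 spanned 6.86 to 7.40 and Pfkfb2 7.13 to 7.58 over the 4 arrays.

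Among the glucose transporters, Slc2a3 set ES cells apart. It encodes GLUT3, a high-affinity transporter of neurons and early embryos. It stood at 11.96 in ES cells, 6.61 in osteoblasts, 6.06 in MSC without bFGF and 5.58 in MSC with bFGF. Against ES cells it differed by -5.34 in osteoblasts, where the level was just above the floor, and by -5.89 and -6.38 in MSC without and with bFGF, where it was under the floor. Slc2a1 encodes GLUT1, the widespread basal transporter, and stood at 11.56 in ES cells, 10.60 in osteoblasts, 10.93 in MSC without bFGF and 10.84 in MSC with bFGF, all within 2-fold. Slc2a8 spanned 7.04 to 7.40. Slc2a4 was under the floor everywhere, at 5.52 to 6.16.

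The lactate carriers showed opposite patterns in osteoblasts and MSC without bFGF. Slc16a1 encodes MCT1, a high-affinity carrier able to import as well as export lactate. Its level was 10.91 in ES cells, 7.95 in osteoblasts, 10.02 in MSC without bFGF and 9.71 in MSC with bFGF, so osteoblasts were the single low array. MSC without bFGF were 2.07 and MSC with bFGF 1.76 above them. Slc16a3, with 6.83 as its lowest level, was low in MSC without bFGF instead. In MSC with bFGF it differed from osteoblasts by only -0.33. Probe sets of different genes differ in affinity, so the balance of 2 genes was read only as a change of their log2 ratio between arrays. The ratio of Slc16a1 to Slc16a3 was 4.27 higher in MSC without bFGF than in osteoblasts and 2.09 higher in MSC with bFGF. Between the MSC cultures this ratio was -2.18 with bFGF less without, the largest change among the 14 ratios examined in that comparison apart from the 2.22 of Slc2a6 to Slc2a1.

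Phosphofructokinase subunits shifted too. Pfkl, the liver-type subunit, stood at 10.14 in ES cells, 9.44 in osteoblasts, 8.27 in MSC without bFGF and 8.45 in MSC with bFGF. The muscle-type subunit Pfkm spanned only 8.38 to 8.96. The ratio of Pfkl to Pfkm therefore differed from that in ES cells by -2.15 in MSC without and -1.98 in MSC with bFGF. With bFGF the ratio of Pfkp to Pfkl was 1.42 higher than without, and 1.14 higher than in osteoblasts.

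Among hexokinases, the ratio of Hk3 to Hk2 was 3.32 higher in osteoblasts and 2.19 higher in MSC with bFGF than in ES cells. Hk3 was under the floor in ES cells and in MSC without bFGF, so the size of these changes is uncertain and none is given for the latter culture. Hk2 stood at 10.09 in ES cells, 8.96 in osteoblasts, 9.21 in MSC without bFGF and 9.79 in MSC with bFGF. For Hk1, the housekeeping hexokinase, 2 probe sets disagreed. The one chosen by its highest mean spanned 12.22 to 12.64 and was 0.26 and 0.42 higher in MSC without and with bFGF than in osteoblasts. The other stood at 8.06 in ES cells, 8.53 in osteoblasts, 7.96 in MSC without bFGF and 8.22 in MSC with bFGF, which makes the differences from osteoblasts -0.57 and -0.31. Probe set numbers run along the chromosomes, and the first lies among genes of chromosome 14 while the second lies among genes of chromosome 10, where Hk1 is. The annotation also lists Hk1 with other symbols for a further 16 probe sets. No direction is therefore given for Hk1.

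The same check found the chosen probe set on another chromosome for 4 further genes, Pgk1, Pgam1, Pkm and Bnip3, and on the gene's own chromosome for 32 of 37. For these 4 genes the sets agreed more closely. The Pgk1 set on the X chromosome stood at 12.02, 11.91, 11.42 and 11.10 in ES cells, osteoblasts and MSC with and without bFGF. With own-chromosome sets throughout, the shared order of arrays still held for 9 of 25 genes, and MSC without bFGF were lowest for 15. Levels of genes with near-identical copies elsewhere are uncertain at single loci.

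Enolases and lactate dehydrogenases also shifted in balance. The muscle enolase Eno3 stood at 7.31 in ES cells, 6.36 in osteoblasts, 7.17 in MSC without bFGF and 7.40 in MSC with bFGF, and the ratio of Eno2 to Eno3 was 2.07 and 1.32 higher in MSC without and with bFGF than in ES cells. Ldhb, the subunit that favours lactate use, stood at 8.87 in ES cells, 7.58 in osteoblasts, 7.55 in MSC without bFGF and 7.96 in MSC with bFGF. ES cells were the high array for Ldhb. Its ratio to Ldha differed from that in ES cells by -0.49 in MSC without bFGF, -0.22 in MSC with bFGF and -0.96 in osteoblasts.

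**Figure D4:**
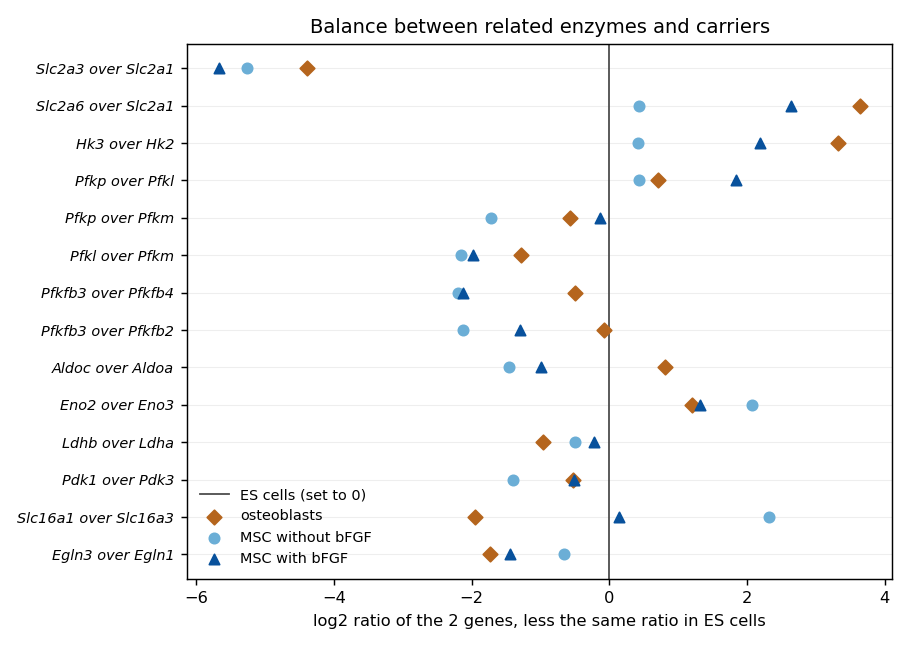
Change in the log2 ratio of 2 related genes (rows) in osteoblasts and both MSC cultures, less the same ratio in ES cells (x axis, ES cells at 0), 1 array each. The ratio of Slc16a1 to Slc16a3 lies at -1.95 in osteoblasts and at 2.32 in MSC without bFGF, and that of Slc2a3 to Slc2a1 lies between -4.39 and -5.67.

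Pyruvate dehydrogenase kinases keep pyruvate out of the mitochondrial oxidation route. Pdk4, the isoform known for its rise on fasting, stood at 5.12 in ES cells, 6.71 in osteoblasts, 3.99 in MSC without bFGF and 4.06 in MSC with bFGF. Only the osteoblast level was above the floor. Pdk3 stood at 8.82, 9.01, 7.97 and 8.28 in that order of arrays, and Pdk2 spanned 6.32 to 6.97. The ratio of Pdk1 to Pdk3 was 0.90 higher with bFGF than without. MSC without bFGF differed from osteoblasts by -0.65 for Pdk2, -1.04 for Pdk3, -1.92 for Pdk1 and -2.72 for Pdk4.

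In the HIF system, the hydroxylases differed in how far they spanned. Egln1, the main prolyl hydroxylase, ran from 7.90 in MSC without bFGF to 8.48 in MSC with bFGF. Egln3, a hydroxylase that is itself a HIF target, stood at 7.04 in ES cells, 5.72 in osteoblasts, 6.22 in MSC without bFGF and 6.03 in MSC with bFGF, above the floor in ES cells alone. It differed from ES cells by -1.32 in osteoblasts and by -1.01 in MSC with bFGF. Epas1 spanned 5.51 to 6.05.

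Other genes of the pathways were taken from lists drawn up by pathway. Between the MSC cultures, none above the floor reached a 2-fold difference, with 10 of 23 measured further glycolysis and pyruvate genes, 6 of 6 pentose phosphate genes, 7 of 9 glycogen genes and 22 of 27 further hypoxia genes above the floor, and medians over those above the floor of 0.08, 0.21, 0.36 and -0.03. Over all genes above the floor, 4.09% were 2-fold or more higher and 0.467% lower. At those shares, lists this small would hold few such genes. Stc1, a secreted calcium-regulating hormone, differed by -1.06, but both levels were under the floor. Vegfa, the angiogenic HIF target, stood at 10.06 without bFGF and 10.01 with it, and the HIF-induced peptide gene Adm at 7.94 and 7.90. The further hypoxia genes thus differed by less than 2-fold between these arrays wherever they were above the floor. This covers that list only, since the HIF-1 target Pdk1 of the main list was 1.21 higher with bFGF.

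Against osteoblasts, few further hypoxia genes were counted in either direction, in shares near those of all genes (8.17% higher and 13.3% lower without bFGF, 7.5% and 9.71% with it). In MSC without bFGF 3 of the 22 further hypoxia genes above the floor were higher, the secreted hormone Stc2 (2.48), Vegfa (1.08) and the transferrin receptor Tfrc (1.00), and 3 were lower, Adm (-2.20), the collagen lysyl hydroxylase Plod2 (-1.87) and the repressor Bhlhe40 (-1.15). In MSC with bFGF 2 were higher, Stc2 (1.69) and Vegfa (1.03), and 3 were lower, Adm (-2.25), Plod2 (-2.07) and the HIF partner Arnt2 (-1.58). The liver glycogen phosphorylase Pygl differed from osteoblasts by -2.60 in MSC without and -2.42 in MSC with bFGF. The monocarboxylate carrier Slc16a7 (MCT2) differed by -1.74 and -1.19, and Slc2a9 and Slc2a10 by -1.06 and -1.02 in MSC without bFGF. The MSC levels behind these values of Pygl, Slc16a7, Slc2a9 and Slc2a10 were all under the floor. So were Stc2 in osteoblasts and Arnt2 in MSC with bFGF, and the sizes of all these differences are uncertain.

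Against ES cells, 2 genes of the further glycolysis and pyruvate list were higher in both MSC cultures, Mpc1 and Dld. The mitochondrial pyruvate carrier subunit Mpc1 stood at 6.84 in ES cells, 8.03 in osteoblasts, 8.15 in MSC without bFGF and 8.55 in MSC with bFGF, 1.31 and 1.71 above ES cells. Dld, a subunit of pyruvate dehydrogenase, was 1.10 and 1.17 higher. They were 2 of 9 genes above the floor without bFGF and 2 of 10 with it, with 0 lower, where 10.4% and 11.3% of all genes were higher. Pdha1, Pdhb and Dlat, the other subunits of the complex, differed by -0.32 to 0.56. In the pentose phosphate pathway Rpe was 1.16 and 1.04 higher, and the transketolase Tkt differed by -1.28 in MSC without bFGF and -0.98 with it. Hmox1, haem oxygenase, was higher by 1.64 and 1.76, the nuclear receptor Rora by 1.204 in MSC without bFGF, and Stc1 differed by -1.64 and -2.70.

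Osteoblasts also differed from ES cells in further pathway genes. Of 12 further glycolysis and pyruvate genes above the floor, 4 were higher and 0 lower, where 12.3% and 8.83% of all genes were. They were Slc16a7 (1.90), Slc2a10 (1.22), Mpc1 (1.19) and Slc2a9 (1.10). Pygl was higher by 2.02, and Adm, Hmox1, Plod2 and the collagen prolyl hydroxylase P4ha1 by 1.92, 1.63, 1.57 and 1.24. Stc1, Stc2 and Tfrc differed by -1.96, -1.64 and -1.09. Slc16a7, Slc2a10, Slc2a9 and Pygl in ES cells, and Stc1 and Stc2 in osteoblasts, were under the floor. The sizes of their differences are therefore uncertain.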

How the data were processed

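The deposited table held log2 RMA levels for 35556 probe sets on 4 arrays. For these deposited values the submitters' processing notes name Affymetrix Expression Console and RMA. RMA corrects background, aligns the distributions of the arrays and summarises the probes of each set, so a general rise or fall of transcripts would not show. The log2 scale was inferred from the deposited values, which ran from 1.40 to 14.28. Software versions were not given in the sources used here, nor was a build. Probe sets with 1 symbol (21789) were named from the platform annotation, 1621 had several symbols and 12146 none; the Entrez identifiers of all 37 genes matched a RefSeq table.

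The members and gene lists were chosen with earlier results of these data known. Every member is accounted for. Values in all arrays were given for members 2-fold different between the MSC cultures or with a range of at least 2 (log2) above the floor, and for others where isoenzymes or array orders are described. From each further list up to 4 genes each way were named per comparison. Alternatives were another probe set per gene, other floors, centring, loess, repeated quantile normalization and a 1.5-fold threshold. The number of arrays limits the precision. Counting was tested on simulated data. Differences, counts and medians were computed in Python 3.11.15 with pandas 2.3.3, and loess curves with statsmodels 0.14.6.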

Additional observations from a re-analysis of the deposited data

How the results depend on the processing

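With the floor at the 75th percentile of each array, the number of genes higher with bFGF was 3 in place of 5 (without Hk3 and Pdk1), the number below osteoblasts in MSC with bFGF 1 in place of 4, and the number below ES cells 5 in place of 8. With a 1.5-fold threshold, 1 gene was lower with bFGF in place of 0. The other 125 of 129 recomputed counts and medians stayed within 1.5 times the main count, or moved from the main median by less than the spread between probe sets of a gene. No called difference of a member changed sign. Hk1 moved by more than the spread between probe sets of a gene. Its difference between MSC without bFGF and osteoblasts was -0.15 as a mean of its probe sets and -0.57 with the own-chromosome set, a choice made after seeing the data. No paired analysis was possible because each group has 1 array and the labels carry no replicate numbers.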

Other observations

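Gapdh, the glycolytic gene most often used as a reference, was not among the genes named, because all 25 probe sets listing it also list other symbols. Their levels ran from 12.43 to 13.47 in ES cells, 12.35 to 13.42 in osteoblasts, 11.99 to 13.07 in MSC without bFGF and 12.04 to 13.16 in MSC with bFGF. Over the 25 sets, the difference of MSC without bFGF from ES cells was -0.59 to -0.39, that of MSC with bFGF from ES cells -0.40 to -0.29, and that between MSC with and without bFGF 0.03 to 0.28. The sets were not taken as independent measures.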
